A study of Arabidopsis thaliana with 12 samples.

Results

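The LHCB4 family consists of the genes LHCB4.1, LHCB4.2 and LHCB4.3, chosen by name through their probe sets on the array (251082_at, 258993_at and 265722_at), which make up 3 of the 22746 probe sets that are not controls. In Arabidopsis each encodes a form of CP29, a monomeric antenna protein of photosystem II that binds chlorophyll a, chlorophyll b and carotenoids. CP29 sits between the photosystem II core and the trimers of the major antenna, passes excitation energy inwards, helps to hold the supercomplex together and takes part in the dissipation of excess light. LHCB4.1 and LHCB4.2 encode closely similar proteins, while the LHCB4.3 protein is shorter at its C-terminal end, is also called LHCB8, and is known in Arabidopsis for transcript levels that respond to high light. Transcripts of antenna genes as a class are known to respond to light and to the circadian clock, and the clock factor CCA1 was first described as a protein binding an antenna gene promoter.

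Transcript levels were measured in the aerial part of wild-type Columbia seedlings, 10 days old, kept on agar with Murashige and Skoog salts and 1% sucrose in cycles of 16 h of light and 8 h of dark. Lights came on at 6am, the first of the 4 harvests. The 12pm harvest followed 6 h and the 6pm harvest 12 h of light, and the 12am harvest, 18 h after lights on, fell in the dark. Each time has 3 arrays, 12 in all, and a line overexpressing CCA1 that the design names was not analysed here. All groups share genotype, age, medium and the sugar supplied with it. Separate cultures are not stated for the replicates, so the p-values rest on a spread between samples that may be technical.

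Levels are log2 values of the authors' GCRMA processing, and an increase of 1 is a fold of 2. Whole shoots were measured, so fewer cells of a type and less RNA per cell cannot be told apart. Values of different probe sets depend on their probes, so only changes are compared between genes, and a position on the signal scale is given only to describe the range of the measurement. Probe sequences were not used here, and hybridisation of one paralog's RNA to another's probes was not tested.

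The replicate 1 arrays stood apart from the others in plastid-encoded transcripts. Over 69 of these their medians were 9.04 to 9.85, against 10.73 to 11.35 for replicates 2 and 3. Their mean correlation with the other arrays of the same time was 0.967 to 0.983 against 0.978 to 0.988, with overlap. The excess of the 3' over the 5' control probe set of GAPDH, which widens with shorter labelled RNA, was 4.198 to 5.336 against 3.342 to 4.358. These ranges overlapped, as did those of actin and ubiquitin between the replicate numbers. The actin and ubiquitin excesses followed the harvest time. The ubiquitin excess was 3.608 to 3.657 on the 12am arrays and 3.057 to 3.319 on the 9 others, and the actin excess was 6.907 to 6.919 at 6am, 7.057 to 7.348 at 12am, 7.361 to 7.751 at 12pm and 7.608 to 7.969 at 6pm. The part of these control values in the differences between times, for every gene described here, was not tested. The main results on the paralogs are also given without replicate 1. Of 9 aerial tissue markers 1 was on a probe set naming 1 gene, RCA, which encodes the activase of Rubisco, with 12.83 to 13.67 over the 12 arrays. Of 12 root markers 3 were. PER7 (2.104 to 2.117) lay at the floor of the values and PRX57 reached 3.69 at most, while PYK10, a beta-glucosidase gene known from roots and also from seedling shoots, was at 11.19 to 12.05.

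LHCB4.3 (AT2G40100, on chromosome 2) had the widest day profile of the paralogs, with its highest level in the dark. Its level on replicates 1, 2 and 3 was 9.26, 10.12 and 10.42 at 12am, against 8.29, 7.91 and 8.13 at 6pm, 7.75, 7.62 and 7.61 at 6am and 7.10, 7.12 and 7.63 at 12pm. Every 12am array lay above all 9 arrays of the other times, and the 12am arrays were also the most scattered, with replicate 1 the lowest of them. The same 3 arrays had the highest 3' over 5' excess of ubiquitin, 3.608 or more against at most 3.319 elsewhere, and its part in this rise was not tested.

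The mean of LHCB4.3 was 9.93 ± 0.60 at 12am (SD, n = 3), 8.11 ± 0.19 at 6pm, 7.66 ± 0.078 at 6am and 7.28 ± 0.30 at 12pm, a 6.28-fold range. The 4 means differed by limma's F-test (adjusted p = 3.63e-05), as they did for LHCB4.2 and not for LHCB4.1, so that 2 of the 3 paralogs, all of which passed the filter on low values, were called, and 46.8% of all 14185 tested probe sets were called in the same test. The rise from 12pm to 12am was 2.65 ± 0.26 (SE; limma adjusted p = 1.73e-05). This comparison called 28.1% of tested probe sets, 13.9% as higher at 12am.

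In order of level, LHCB4.3 at 12am was above its neighbour 6pm by 1.83 ± 0.26, or 3.54-fold (limma adjusted p = 0.000483), in a comparison that called 19.9% of tested probe sets, 9.95% as higher at 12am. From 12am to 6am it fell 4.84-fold (limma adjusted p = 9.36e-05), in a comparison that called 23.7%, 12.5% as lower at 6am. Without replicate 1 the rise from 12pm to 12am was 2.90 ± 0.19 (limma adjusted p = 1.15e-05), the rise from 6pm to 12am was 2.25 (7.7e-05) and the order of the 4 means was the same. A level at 12am called above each of the other 3 times was found for 2.87% of tested probe sets (407).

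The other neighbours in the order of LHCB4.3 were not separated by the test. From 6am to 6pm it differed by 0.45 ± 0.26 (limma adjusted p = 0.217, unadjusted 95% interval -0.12 to 1.02), although no 6pm array overlapped a 6am array. From 6am to 12pm the difference was -0.38 ± 0.26 (limma adjusted p = 0.292, interval -0.95 to 0.19), and the arrays overlapped through replicate 3 of 12pm. The times 12pm and 6pm are not neighbours in this order. Between them the difference was 0.83 ± 0.26 (unadjusted 95% interval 0.257 to 1.395), with no overlap of arrays. Its limma adjusted p of 0.0557 was 0.0473 with replicates 2 and 3 alone and 0.00819 without 12am replicate 1.

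LHCB4.2 (AT3G08940, on chromosome 3) was high at 6am and 12pm and lower at 6pm and 12am. Its level on replicates 1, 2 and 3 was 13.87, 14.10 and 14.07 at 6am, 14.25, 14.22 and 14.34 at 12pm, 13.04, 13.24 and 13.34 at 6pm and 13.09, 13.03 and 12.97 at 12am. The 6 arrays of 6am and 12pm all lay above the 6 arrays of 6pm and 12am, with a gap from 13.34 to 13.87. None of the 3 control excesses split the arrays in this way, and their part in this profile was not tested.

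The mean of LHCB4.2 was 14.27 ± 0.063 at 12pm (SD, n = 3), 14.02 ± 0.12 at 6am, 13.21 ± 0.16 at 6pm and 13.03 ± 0.059 at 12am, a 2.37-fold range (limma F-test, adjusted p = 1.95e-05). Its decrease fell within the light period: from 12pm to 6pm it fell by 1.06 ± 0.12, or 2.09-fold (limma adjusted p = 0.00015). This step called 14.3% of tested probe sets, 7.89% as lower at 6pm. Its increase fell in the interval that holds most of the night: from 12am to 6am it rose by 0.99 ± 0.12, or 1.98-fold (limma adjusted p = 0.000175), where 11.2% of tested probe sets were called as higher at 6am.

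The remaining steps of LHCB4.2 were smaller. From 6am to 12pm it differed by 0.26 ± 0.12 (limma adjusted p = 0.133, interval -0.014 to 0.53), with no overlap of arrays. From 6pm to 12am it differed by -0.18 ± 0.12 (limma adjusted p = 0.364, interval -0.45 to 0.092), with overlapping arrays. Across 12 h, it was lower at 6pm than at 6am by 1.75-fold and lower at 12am than at 12pm by 2.37-fold (limma adjusted p = 0.000404 and 1.88e-05), and the first of these comparisons called 32.4% of tested probe sets. The shares called as lower were 15.7% at 6pm and 14.2% at 12am.

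Without replicate 1 the LHCB4.2 means kept their order, the 12pm to 6pm fall was 0.99 (limma adjusted p = 0.000805) and the 12am to 6am rise was 1.09 (0.000247). The pattern of 6am and 12pm each called above both 6pm and 12am was found for 2.11% of tested probe sets (300).

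LHCB4.1 (AT5G01530, on chromosome 5) had the narrowest profile, with slightly higher levels at 12pm and 6pm. Its level on replicates 1, 2 and 3 was 14.34, 14.32 and 14.37 at 6am, 14.61, 14.63 and 14.58 at 12pm, 14.49, 14.52 and 14.61 at 6pm and 14.39, 14.37 and 14.33 at 12am. All 6 arrays of 12pm and 6pm lay above all 6 arrays of 6am and 12am, by at least the step from 14.39 to 14.49. The actin excess split the arrays in the same way, with 6.907 to 7.348 at 6am and 12am and 7.361 to 7.969 at 12pm and 6pm, and its part in this profile was not tested.

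The mean of LHCB4.1 was 14.61 ± 0.029 at 12pm (SD, n = 3), 14.54 ± 0.061 at 6pm, 14.36 ± 0.029 at 12am and 14.34 ± 0.021 at 6am, a range of 0.264 log2 units. It was not called by limma's F-test (adjusted p = 0.107). The largest difference, 0.26 ± 0.10 from 6am to 12pm, had a limma adjusted p of 0.0652 and an unadjusted 95% interval of 0.041 to 0.49, in a comparison that called 34.4% of tested probe sets. From 12pm to 12am the difference was -0.24 ± 0.10 (limma adjusted p = 0.101). The neighbours 12pm and 6pm differed by -0.066 (limma adjusted p = 0.755) and the neighbours 12am and 6am by -0.022 (0.903), and in both the arrays overlapped.

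The call for LHCB4.1 depended on how its spread was estimated. The SD within times pooled over the 12 arrays was 0.038, and limma, which draws each probe set's SD towards a common value of 0.219, used 0.125. With a common value that follows the level and is robust to outlying probe sets it used 0.065, and the F-test then had an adjusted p of 0.00268. An exact permutation test of the F statistic of LHCB4.1 alone, over all 369600 assignments of arrays to times and added after these spreads were seen, gave p = 0.000974. With replicates 2 and 3 alone that exact test gave p = 0.0571, where 0.00952 was the smallest possible, and the limma adjusted p was 0.136.

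LHCB4.1 was measured near the top of the signal scale, where its highest array lay 0.419 below the highest value of the table, 15.05. Of the 21 tested probe sets with a mean of at least 14, 23.8% were called by the F-test and their median range of means was 0.267, against 0.642 over all tested probe sets. LHCB4.1, with a range of 0.264, was one of these 21. None of them had a range above 0.977, and their choice by a high mean itself leaves less room for a wide range. The highest array of LHCB4.2 lay 0.711 below the top of the table. Its mean of 13.63 left it outside these 21, and its range was 1.24. The part of signal saturation in these narrow ranges was not tested.

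**Figure D1:**
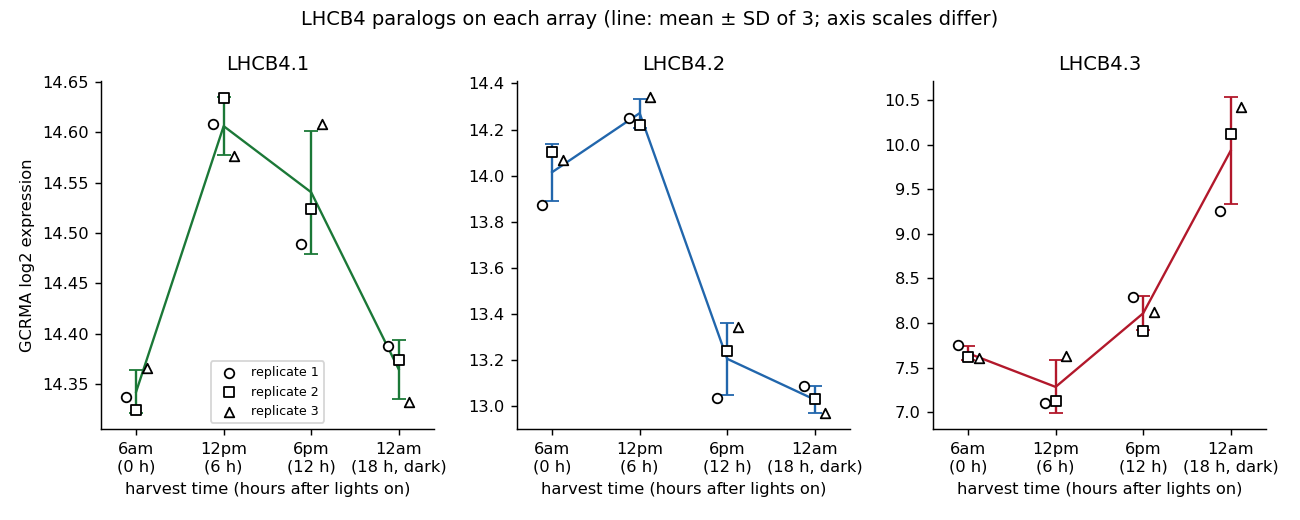
GCRMA log2 expression (vertical axis, scaled separately for each gene) of LHCB4.1, LHCB4.2 and LHCB4.3 on each of the 12 arrays against harvest time in hours after lights on. Symbols are replicates and lines join means with the SD of 3 arrays: LHCB4.1 stays between 14.32 and 14.63, LHCB4.2 drops from 14.27 at 12pm to 13.21 at 6pm, and LHCB4.3 reaches 9.93 at 12am.

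**Figure D2:**
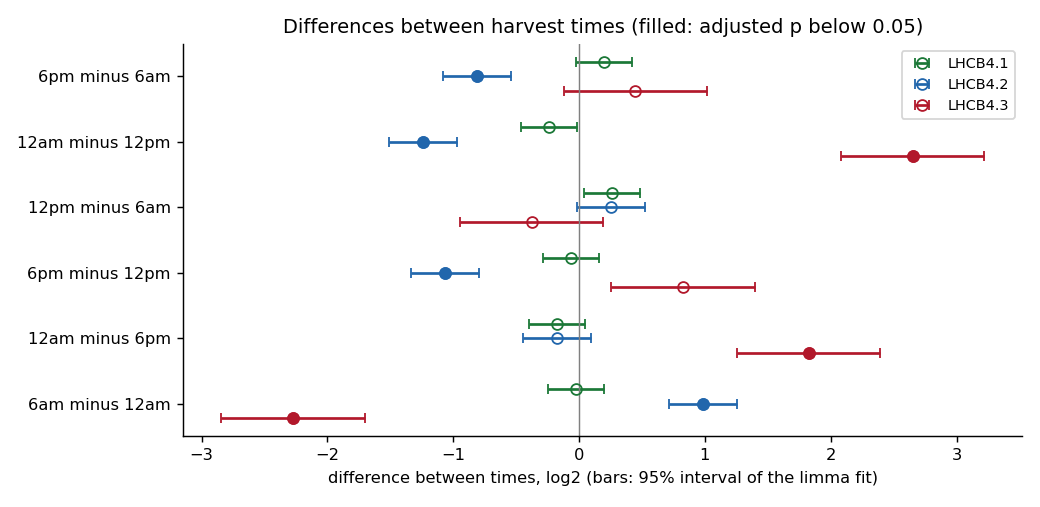
Log2 differences between harvest times for the 3 paralogs with unadjusted 95% intervals of the limma fit (horizontal axis). Filled points had an adjusted p below 0.05: LHCB4.2 and LHCB4.3 lie on opposite sides of 0 from 12pm to 12am, at -1.24 and 2.65, and no LHCB4.1 point is filled.

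A 24-h cosine fitted to the 4 times places the maxima of the paralogs at different hours, as a description limited by harvests 6 h apart. The fitted maximum was 3.80 h after lights on for LHCB4.2, 8.62 h for LHCB4.1 and 17.36 h for LHCB4.3, with amplitudes of 0.74, 0.16 and 1.34 log2 units. The 24-h component was called for LHCB4.2 (limma adjusted p = 8.22e-06) and LHCB4.3 (2.61e-05) and not for LHCB4.1 (0.0662), and 44.8% of tested probe sets were called. With replicates 2 and 3 alone these values were 5.35e-05, 1.92e-05 and 0.0836. The 24-h component takes 2 of the 3 degrees of freedom between 4 means. A high share of their variance is therefore not by itself a sign of a rhythm. The component held 99.9% of the variance between the means of LHCB4.2, 96.2% for LHCB4.1 and 87.3% for LHCB4.3. The rest for LHCB4.3 was a 12-h alternation of -0.72 ± 0.18, the mean of 6am and 6pm minus that of 12pm and 12am (limma adjusted p = 0.024), a component called for 13.8% of tested probe sets. That call was lost without replicate 2 of 6am, 6pm or 12am (limma adjusted p = 0.0514, 0.0516 and 0.0645) and without replicate 3 of 6am, 12pm or 12am (0.0537, 0.0618 and 0.0542), while it was 0.00157 with replicates 2 and 3 alone.

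Whether the paralogs follow different day profiles was tested on the difference between 2 paralogs within each array, with an exact permutation test of its F statistic over the 4 times and p-values adjusted over the 3 pairs. All 3 pairs differed. This test does not tell a difference in shape from one in amplitude alone. The parts of signal saturation and of hybridisation between paralogs in these differences were not tested. LHCB4.2 and LHCB4.3 differed most widely (adjusted exact p = 0.000195, from 6.49e-05, the smallest the test can give). Next in width were LHCB4.1 and LHCB4.3 (adjusted exact p = 0.000195), then LHCB4.1 and LHCB4.2 (0.00643). The F statistics were 56.1, 33.8 and 113 in the same order, so the pair with the largest exact p had the largest F. With replicates 2 and 3 alone, where the smallest exact p is 0.00952, the adjusted values were 0.0143, 0.0143 and 0.0381 in that order.

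LHCB4.1 and LHCB4.2 had close changes in 2 of the 4 successive steps and moved apart in the others. From 6am to 12pm their changes of 0.26 and 0.26 differed by 0.0081 ± 0.077 (SE), and from 6pm to 12am their changes of -0.18 and -0.18 differed by 0.0017 ± 0.077. From 12pm to 6pm LHCB4.1 changed by -0.066 and LHCB4.2 by -1.06, a difference of 1.00 ± 0.077. From 12am to 6am they changed by -0.022 and 0.99, a difference of -1.01 ± 0.077. LHCB4.1 relative to LHCB4.2 therefore stepped up after 12pm and back down after 12am.

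LHCB4.2 and LHCB4.3 changed in opposite directions from 12pm to 12am and from 12am to 6am. From 12pm to 12am LHCB4.2 changed by -1.24 and LHCB4.3 by 2.65, so that the changes differed by -3.89 ± 0.32 (SE), and by -4.18 without replicate 1. Both of the single changes are called above, also without replicate 1 (limma adjusted p = 7.71e-05 for LHCB4.2). From 12am to 6am the changes of 0.99 and -2.27 differed by 3.26 ± 0.32. The rise of LHCB4.3 came mainly after 6pm, where LHCB4.2 had already reached its lower level: from 6pm to 12am the change was 1.83 for LHCB4.3 and -0.18 for LHCB4.2.

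Over the 12 arrays the correlation was -0.813 between LHCB4.2 and LHCB4.3, -0.528 between LHCB4.1 and LHCB4.3 and 0.312 between LHCB4.1 and LHCB4.2, given as a description of values that share arrays and times. On the 8 arrays of replicates 2 and 3 it was -0.824, -0.532 and 0.279.

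**Figure D3:**
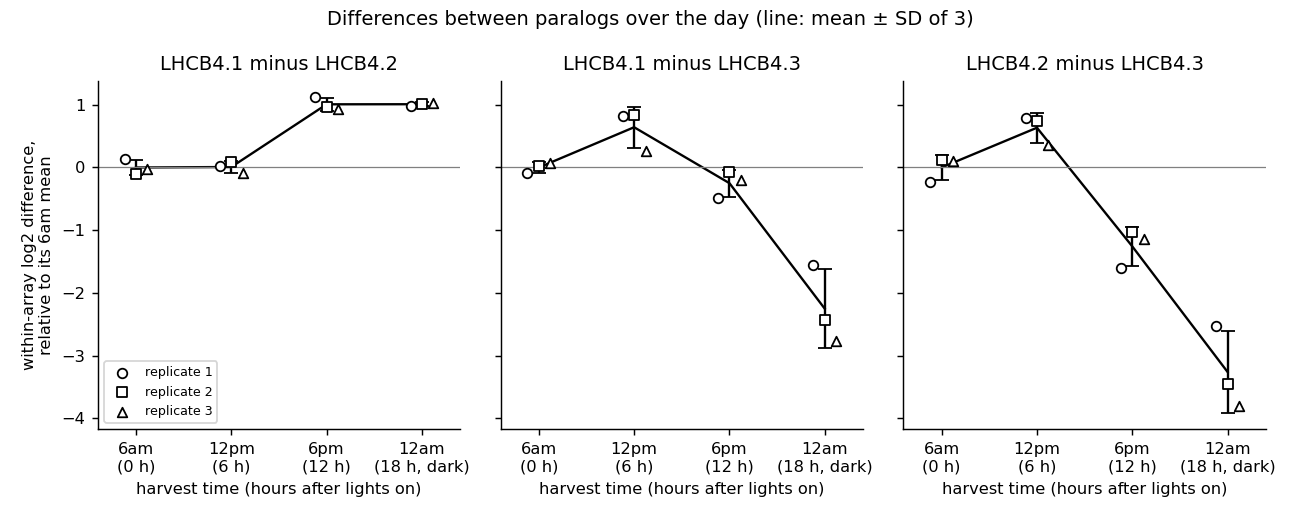
Log2 difference between 2 paralogs within each array, relative to its mean at 6am (vertical axis), against harvest time in hours after lights on, with replicates as symbols and lines for the mean and SD of 3 arrays. LHCB4.1 minus LHCB4.2 steps up by 1.00 between 12pm and 6pm, and LHCB4.2 minus LHCB4.3 drops by 3.89 from 12pm to 12am.

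Other genes of the photosystems gave a setting for these profiles, though few were on probe sets naming 1 gene. Of 12 nuclear genes for photosystem II core and oxygen evolution proteins 3 were tested, and all 3 were called by the F-test, also with replicates 2 and 3 alone, against 46.8% and 58.4% of all tested probe sets. PSBW, encoding a small subunit that stabilises photosystem II supercomplexes, was at 12.84 ± 0.076 at 6am, 13.34 ± 0.069 at 12pm, 13.08 ± 0.072 at 6pm and 12.76 ± 0.059 at 12am (SD, n = 3; limma F-test, adjusted p = 0.004). PSBY, encoding a small membrane subunit, was at 13.31, 13.71, 13.30 and 13.06 at the same times (adjusted p = 0.00462). PSB27, encoding a lumenal protein linked to assembly and repair of photosystem II, was at 13.47, 13.96, 13.52 and 13.14 (adjusted p = 0.00604).

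These 3 genes had their highest mean at 12pm and their lowest at 12am, as LHCB4.2 did, and as PSAE1 and PSAN of photosystem I did. From 6am to 6pm, where LHCB4.2 changed by -0.81, PSBW, PSBY and PSB27 changed by 0.23, -0.0087 and 0.056. None of these 3 changes was called (limma adjusted p = 0.125, 0.966 and 0.817), in a comparison that called 32.4% of tested probe sets. All 3 rose from 6am to 12pm by limma, where 17.3% of tested probe sets were called as rising, and 2 rose with replicates 2 and 3 alone, where 21.6% were. All 3 were lower at 12am than at 12pm, a call made for 14.2% of tested probe sets, with a median change of -0.653 against 0.0224 over all tested probe sets. From 12pm to 6pm only PSBY was called among them (-0.40), whereas LHCB4.2 changed by -1.06. The difference between LHCB4.2 and these genes was not tested.

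Of 12 nuclear photosystem I core genes 2 were tested, and 0 were called by limma's F-test, 0 also with replicates 2 and 3 alone, with 1 at an unadjusted p below 0.05 and against the same 46.8% and 58.4% of all tested probe sets. PSAE1, encoding a stromal subunit, was at 14.36, 14.38, 14.34 and 14.20 at 6am, 12pm, 6pm and 12am (adjusted p = 0.538), a range of 0.172 against 0.264 for LHCB4.1. PSAN, encoding a lumenal subunit, was at 14.13, 14.24, 14.01 and 13.87 (adjusted p = 0.0568), and its 12am level was below its 12pm level by 0.37 (limma adjusted p = 0.0239). None of the 6 photosystem I antenna genes of the list was on a probe set naming 1 gene.

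Of 21 other photosystem II antenna genes and relatives of the antenna family 2 were tested, both of them LIL3 genes, whose products belong to the wider antenna superfamily and serve chlorophyll synthesis. LIL3.2 was highest at 6am, with 11.65 ± 0.18 against 10.86 ± 0.082 at 12pm, 10.71 ± 0.042 at 6pm and 11.01 ± 0.055 at 12am (SD, n = 3; limma F-test, adjusted p = 0.000294). LIL3.1 was at 12.67, 12.93, 13.09 and 12.88 (adjusted p = 0.0557), and its change from 6am to 6pm, 0.42 by limma (adjusted p = 0.0162), was not called with replicates 2 and 3 alone (0.32, adjusted p = 0.0687). Over the same interval LIL3.2 fell by 0.94, also with replicates 2 and 3 alone (limma adjusted p = 0.000112 and 0.000217). The difference between the LIL3 genes was not tested. Of 18 genes for antenna import, phosphorylation, pigment and regulation 1 was tested, HYH, encoding a bZIP factor of light signalling, which was highest at 6am (12.50) and at 9.09, 8.73 and 9.93 at 12pm, 6pm and 12am.

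**Figure D4:**
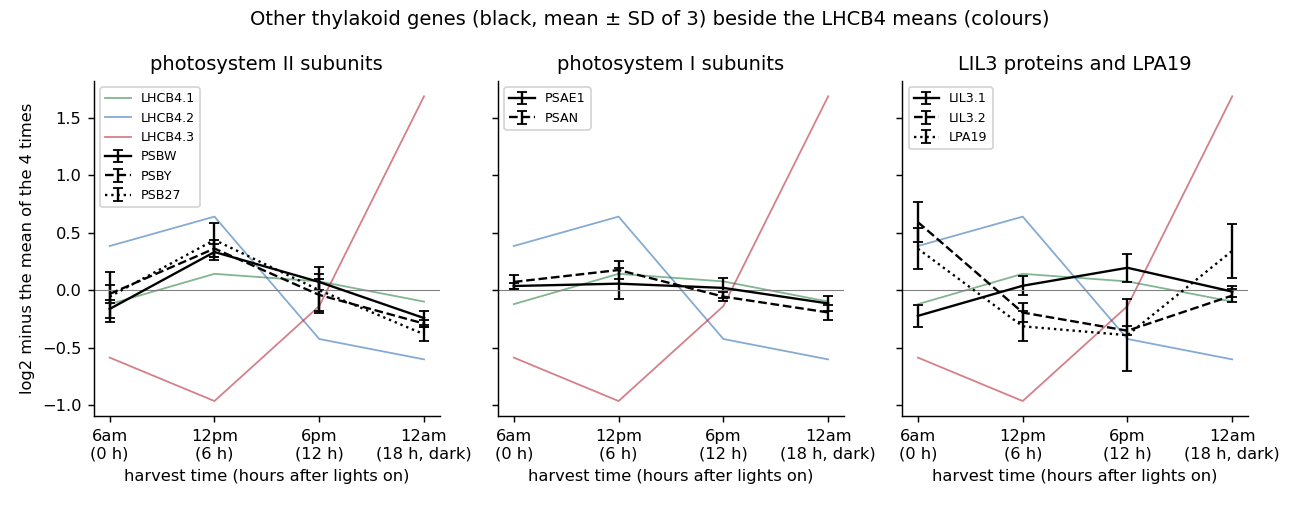
Log2 level minus the mean of the 4 times (vertical axis) against harvest time for nuclear photosystem II and I subunits and for LIL3.1, LIL3.2 and LPA19 (black, mean and SD of 3 arrays), with the LHCB4 means in colour. PSBW, PSBY and PSB27 are highest at 12pm, and none of the 8 genes shown has a rise at 12am as large as that of LHCB4.3.

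A further 2 lists were drawn from the annotation after its names and the means had been seen. Their values, calls and p-values are given only as a description. Of 5 photosystem II assembly factors 1 was called by the F-test, and 2 with replicates 2 and 3 alone, no larger a share than the 46.8% and 58.4% of all tested probe sets. LPA19, which aids processing of the D1 protein, was at 11.13 and 11.12 at 6am and 12am and at 10.46 and 10.38 at 12pm and 6pm (adjusted p = 0.00587). LPA2, which aids assembly of the CP43 core antenna, was at 10.30, 9.90, 10.33 and 10.60 at 6am, 12pm, 6pm and 12am (adjusted p = 0.0956, and 0.0246 with replicates 2 and 3 alone). Both were higher at 12am than at 12pm, the direction of LHCB4.3, by 0.66 and 0.71 (limma adjusted p = 0.0191 and 0.0331). This call was made for 13.9% of all tested probe sets. The rest of the list was not called: LPA1 differed by 0.22, PAM68 by 0.092 and LPA66 by -0.59 (limma adjusted p = 0.256, 0.709 and 0.301).

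Of 15 plastid-encoded photosystem II genes 0 were called by limma's F-test, with adjusted p from 0.370 to 0.996 and 0 at an unadjusted p below 0.05. With replicates 2 and 3 alone 6 were called, psbD, psbH, psbI, psbJ, psbK and psbT, a smaller share than the 58.4% of all tested probe sets. Replicate 1 was low for plastid transcripts in general, as given above, and its part in these calls was not tested.

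The named genes whose values followed each paralog most closely were taken by Pearson correlation over the 12 arrays among 7715 tested probe sets naming 1 gene, as a description with no test, since all of these values share the arrays and the 4 times. For LHCB4.3 they were AT5G04840 (r = 0.981), UGT85A4, of the glycosyltransferase family (0.977), AT1G77670 (0.971) and AT5G37740 (0.969). UGT85A4 had a range of means of 2.39 against 2.65 for LHCB4.3, from 6.41 ± 0.32 at 12pm to 8.80 ± 0.21 at 12am (SD, n = 3). AT5G04840 gave low values, from 3.79 at 12pm to 4.97 at 12am. All 4 had their highest mean at 12am and their lowest at 12pm.

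For LHCB4.2 the closest were AT3G15780 (r = 0.992), AT5G16030 (0.981), AT4G13010 (0.977) and AT5G35970 (0.975), and all 4 had their highest mean at 12pm and their lowest at 12am. AT4G13010, encoding a quinone oxidoreductase homologue of the chloroplast envelope, was at 10.85, 11.11, 9.80 and 9.37 at 6am, 12pm, 6pm and 12am. AT5G35970 had the widest range of the 4, from 12.42 ± 0.061 at 12pm to 9.19 ± 0.29 at 12am (SD, n = 3).

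For LHCB4.1 the closest were AT4G22740 (r = 0.981), AT5G37360 (0.975), the clock gene GI (0.968) and UGT73C1, a glucosyltransferase gene (0.963), and the first 2 had ranges of means of 0.65 and 1.16 against 0.264 for LHCB4.1. GI was at the floor of 2.104 on all arrays of 6am and 12am and at 8.41 ± 0.37 at 12pm and 7.40 ± 0.28 at 6pm (SD, n = 3). UGT73C1 was near that floor at 6am and 12am (2.35 and 2.27) and at 5.63 ± 0.20 at 12pm and 4.21 ± 0.39 at 6pm (SD, n = 3). Both passed the filter on low values only through 12pm and 6pm, and no range is given for them. On the 8 arrays of replicates 2 and 3 the correlations of all 12 genes with their paralogs were 0.970 to 0.996. A correlation above 0.9 was reached by 87 probe sets naming 1 gene for LHCB4.1, 58 for LHCB4.2 and 57 for LHCB4.3.

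**Figure D5:**
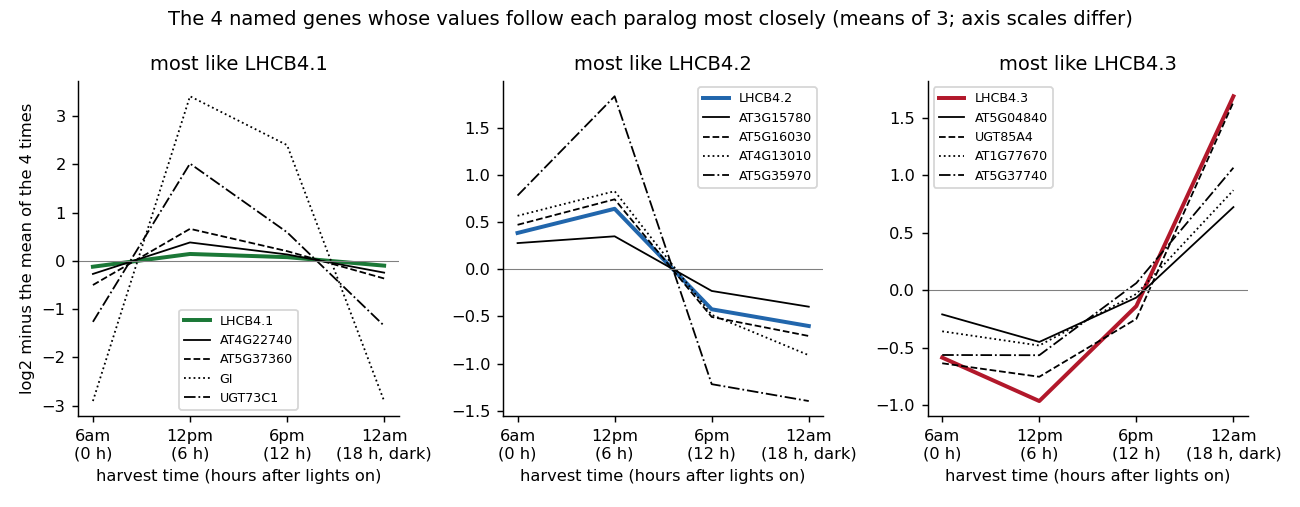
Log2 level minus the mean of the 4 times (vertical axis, scaled separately) against harvest time for each LHCB4 paralog (colour) and the 4 named genes most correlated with it (black), as means of 3 arrays. The genes were chosen for this likeness. GI, among those of LHCB4.1, is at the floor of the values at 6am and 12am, and those most like LHCB4.3 have their highest mean at 12am, as it does.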

How the data were processed

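The data are 12 one-colour Affymetrix arrays of wild-type shoots, grouped by the harvest time in the sample titles. Deposited values are on a log2 scale, and the authors computed them with GCRMA (R 3.1, affy 1.42.3), per the submitters' processing notes. This method corrects background by probe sequence, normalizes between arrays and summarises probes. Whether all arrays were normalized as 1 set is not stated in the labels. Precision is limited by the number of arrays.

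Probe sets were named through the platform's annotation, joined by gene identifier to RefSeq genes of TAIR10.1: of 22746 without the 64 controls, 13513 named 1 gene (13436 matched a locus), 503 several and 8730 none. Coordinates are left out because no genome build is named. Probe sets reaching a log2 of 4 on at least 3 arrays were tested (14185). Linear models with time as a factor were fitted to all 12 arrays with limma 3.58.1 in R 4.3.3 and eBayes (8 residual and 3.44 prior degrees of freedom), two-sided. Benjamini-Hochberg adjustment ran over all tested probe sets, and results with an adjusted p below 0.05 are named as called. Exact permutation tests used NumPy 2.4.6 in Python 3.11.15. Both were tested on simulated data.

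The members, lists, tests and the rule for named genes were chosen with earlier results of these data known. The rule took the 3 paralogs, called list members naming 1 gene, and the 4 genes most correlated with each paralog. List members that were not called, and the assembly and plastid lists, were named after their values were seen. Alternatives were filters, quantile normalization, a replicate block, eBayes with trend and robust settings, leaving out arrays, and the 2 times compared alone. Sequences of promoters and proteins were not used here, so the planned motif search was not run.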

Additional observations from a re-analysis of the deposited data

How the results depend on the processing

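Of 555 recomputed values for the paralogs, 524 stayed on the same side of the threshold in the same direction, 24 gained a call, 7 lost one and 0 called values changed sign. The alternatives share most arrays with the main setting. The 4 called differences of LHCB4.2, the 3 of LHCB4.3 and the 3 pair tests stayed called under every alternative run. Without the filter, and with the trend and robust settings, LHCB4.1 was called over the 4 times (range 0.264). The same settings called its 24-h component (amplitude 0.156), 6pm minus 6am (0.198) and 12pm minus 6am (0.264). They also called its 12am minus 12pm (-0.242) and 12am minus 6pm (-0.176). Its own exact permutation test, added after the spreads were seen, gave an unadjusted p of 0.000974. This is counted among the 24 gains above, although it is not an adjusted p. With replicates 2 and 3 alone the same exact permutation test gave p = 0.0571, where 0.00952 was the smallest possible. The trend and robust settings also called LHCB4.2 for 12pm minus 6am (0.256) and LHCB4.3 for 6pm minus 12pm (0.826). Without the filter the alternation of LHCB4.3 (-0.724) was not called, and leaving out 1 array gave -0.893 to -0.602. For 6pm minus 12pm, LHCB4.3 was called at 0.645 with replicates 2 and 3 alone and at 0.826 with only those times, and leaving out 1 array gave 0.735 to 0.998. Quantile normalization called LHCB4.1 for 12pm minus 6am (0.288) and LHCB4.3 for 6pm minus 12pm (0.861). The causes were not tested.

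Deviations from the time means of arrays sharing a replicate number correlated at 0.0554 to 0.649 (different numbers -0.559 to 0.397). Of 12 arrays 11 correlated best with their own number. The labels do not say whether arrays of the same number belong together. With the replicate number as a block, LHCB4.1 was called for 12pm minus 6am (0.264) and its 24-h component (0.156). LHCB4.3 was called for 6pm minus 12pm (0.826), and no other call changed. Every count of called probe sets rose with the block, and the shares given above come from fits without it. Over the 4 times the F-test called 8927, from 6639. The counts rose to 3303 for 6pm minus 12pm, 4313 for 12am minus 6pm and 5111 for 6am minus 12am, from 2024, 2826 and 3363. They rose to 6204 for 6pm minus 6am, 5635 for 12am minus 12pm and 6473 for 12pm minus 6am, from 4596, 3987 and 4881. Leaving out 1 array gave counts of 1286 to 2454 for 6pm minus 12pm, the lowest on leaving out 12pm replicate 2 (1321 without 12pm replicate 3), and of 2113 to 3804 for 6am minus 12am, lowest without 12am replicate 2 and 2164 without 12am replicate 3.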
